A study of Mus musculus with 14 samples.

Results

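The genes described here encode the proteins of the cytosolic ribosome, the particle that translates the messenger RNAs of the nucleus. Members were taken by symbol, as Rpl, Rps or Rplp followed by a number and at most 1 of the letters a, x and y, and had to reach 10 or more counts in at least 2 of the 14 libraries. The pattern matched 75 of the 24421 gene symbols in the deposited table, and 74 of them met the count rule, 45 of the large subunit and 29 of the small subunit. The members were thus chosen by their symbols and selected on raw counts in all libraries, without regard to group. The libraries were made from messenger RNA of kidneys of male C57BL/6J mice, which carried no other genotype in the labels and whose age is not given in the sources used here. Control mice received vehicle and carry no time point (3 libraries). The treated mice received Dps or MnDps into a vein at 18 mg/kg, and were examined after 4 h or 24 h. There were 3 libraries of Dps and 3 of MnDps at the early time, and 3 of Dps and 2 of MnDps at the late time. The series title presents the material as protein nanocages aimed at the proximal tubule; the labels do not say in what MnDps differs from Dps, nor whether each library is 1 mouse, so that p-values measure the spread between libraries.

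A ribosome holds about equal amounts of each of its proteins, which are made in the cytosol, imported into the nucleolus and assembled there on ribosomal RNA. Their messenger RNAs are short and abundant and begin with a pyrimidine-rich stretch, the 5' terminal oligopyrimidine or TOP motif, through which growth signals that act on the kinase mTORC1 set how much of the RNA is translated. Some ribosomal proteins are also sensors: unassembled Rpl5 and Rpl11 bind Mdm2, the ligase that keeps p53 low. In the kidney, cells of the proximal tubule take up filtered protein by endocytosis and renew their transporters and enzymes steadily, which draws on the ribosome.

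The starts of 5 members are shown because these members were among the largest or were the smallest rises in MnDps against Dps at 4 h, among the 47 members of the symbol pattern with a single start in RefSeq. Each line gives 15 bases before the RefSeq transcription start in lower case and the first 15 transcribed bases in capitals, 5′ to 3′, on build GRCm38.p6.
Rplp2, chr7:141447636-141447665, plus strand: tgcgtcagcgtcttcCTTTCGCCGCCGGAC
Rpl36a, chrX:134585639-134585668, plus strand: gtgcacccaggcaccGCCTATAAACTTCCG
Rpl38, chr11:114668565-114668594, plus strand: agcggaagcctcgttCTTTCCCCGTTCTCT
Rpl7a, chr2:26910792-26910821, plus strand: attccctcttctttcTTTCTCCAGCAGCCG
Rpl15, chr14:18270972-18271001, minus strand: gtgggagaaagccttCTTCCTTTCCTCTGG

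Rplp2, Rpl36a and Rpl38 were among the largest rises, and Rpl7a and Rpl15 were the smallest. RefSeq promoters were held for 55 of the 75 symbols. The letters CTTTC, a common form of the TOP start, were found on the transcript strand within 25 bases of the start in 18 of these 55 (32.7%) in 7.87% of 27025 promoters of all genes and in 6.90% of those of tested genes. Of the starts shown, those of Rplp2, Rpl38, Rpl7a and Rpl15 hold it, so that these letters were present at both ends of the range of responses. The ETS-like letters CCGGAAG, searched on both strands over 300 bases, were in 22 of the 55 (40.0%) in 9.93% of all promoters and in 17.9% of the 11222 promoters of tested genes. TATAAA in the 50 bases before the start was in 0 of 55, 3.15% and 2.05%. Matches of different motifs were counted separately, whether or not they shared bases, and a match is a description of the letters only.

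Total counts ran from 15097093 to 42074942 per library, and 3 libraries exceeded 30000000: they were control replicate 3 and, of Dps at 4 h, replicates 1 and 2. The rank correlation of levels, taken over the members only and not over all genes, was at least 0.9636 in each of the 91 pairs of libraries. Replicate 3 of MnDps at 4 h stood apart from the other replicates of its group in the members, and results that rest on it are given with and without it. Markers of the proximal tubule were high in every library, with a summed level of 43009.9 to 68056.7 CPM over 7 genes. The summed level of 4 neutrophil genes was 0.458 to 1.21 CPM in the controls, 4.55 to 6.88 in Dps at 4 h, 9.77 to 16.7 in MnDps at 4 h, 1.39 to 2.53 in Dps at 24 h and 1.26 to 1.35 in MnDps at 24 h. For 5 macrophage genes it was 107 to 128, 87.2 to 97.3, 85.7 to 93.8, 153 to 168 and 158 to 163 CPM in the same order, and for 5 endothelial genes 296 to 340, 160.0 to 218, 172 to 222, 350.1 to 418 and 394 to 449 CPM. Over 4 adipocyte genes it was 0.274 to 37.5, 53.8 to 116, 37.3 to 94.1, 24.5 to 64.5 and 10.5 to 40.8 CPM, and over 2 genes of collecting duct principal cells 187 to 288, 186 to 236, 284 to 419, 424 to 495 and 418 to 548 CPM. Such sums follow the most abundant genes. In MnDps at 4 h against control (edgeR, adjusted p under 0.05), 1 principal cell gene was higher and 1 lower. Of the 7 proximal tubule genes 1 was higher and 4 lower there, although that group held their highest sum. Over all tested genes 22.9% were higher and 22.7% lower. Among 3 erythroid genes Hbb-bs and Hba-a1 had no count in any library. The part of these cells in the changes of ribosomal protein genes was not tested.

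Most members were abundant. In the controls, levels per transcript length, in CPM (counts scaled to library size) per kilobase, were highest for Rplp1 (704 ± 113, SD, n = 3), Rps24 (589 ± 58.8) and Rpl41 (585 ± 111). Rplp1 is a protein of the stalk that recruits the translation factors, and Rpl41 is the smallest protein of the ribosome. The 3 lowest were Rpl30 (1.44 ± 0.397), Rps27 (1.86 ± 0.347) and Rpl34 (3.16 ± 0.165). These 3 were also the members nearest to the count rule, with 13 to 37 counts per library for Rpl30, 8 to 28 for Rps27 and 22 to 76 for Rpl34. Rps27 reached 10 counts in 12 libraries and the other pair in all 14, while the next member, Rpl27, had 1180 to 2702. Rpl26, the symbol left out, had 0 counts in every library.

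Ribosomal protein genes have many processed pseudogenes, and the handling of reads that match several genes is not given in the sources used here. Of the 75-base windows in the mRNA of Rps27, 98.5% also occurred in another gene, all of them in Rps27rt, which had no count in any library. The share was 65.1% for Rpl30, 30.5% for Rpl34 and 48.9% for Rpl26. High sharing did not always go with low counts. Rpl10 shared 91.9% of its windows and Rpl5 92.5%, and both were abundant, while Rps3 shared 0%. Of the 74 members, 38 shared at least 50% of their windows, and their levels are uncertain to that extent. Exons of other genes also overlapped some members: 71.5% of the exonic bases of Rpl24 (Gm28037), 55.4% of Rpl23a (Tlcd1), 55.0% of Rpl30 (D730044K07Rik), 54.9% of Rpl13a (Gm45713) and 46.6% of Rpl5 (Fam69a). The libraries were stranded by their kit, but the strand setting of the counting is not given, so reads of genes on opposite strands cannot be told apart.

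**Figure D1:**
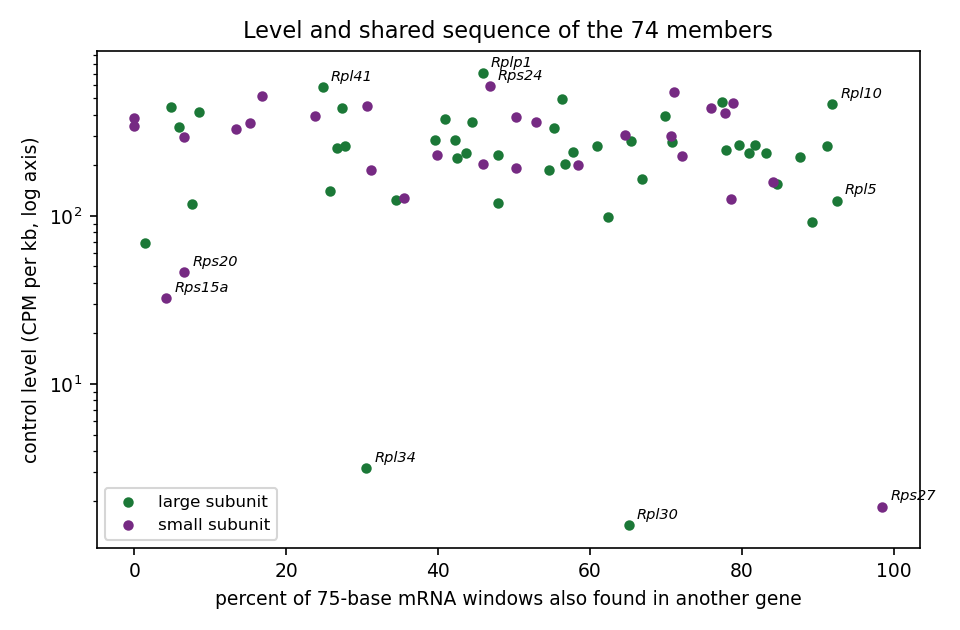
Control level (mean of 3 libraries, CPM per kilobase of transcript, log axis) of each of the 74 members against the percent of its 75-base mRNA windows that also occur in another gene. Rpl30, Rps27 and Rpl34 lie far below the other members, while Rpl10 and Rpl5, with 91.9% and 92.5% of windows shared, do not.

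Members took 1.60%, 1.79% and 1.49% of all counts in the 3 control libraries and 1.41%, 1.43% and 1.47% after Dps at 4 h. The share was 2.13%, 2.13% and 2.65% after MnDps at 4 h, 2.20%, 2.22% and 2.19% after Dps at 24 h, and 2.21% and 2.00% after MnDps at 24 h. All 8 libraries of the last 3 groups lay above every control library, and all 3 libraries of Dps at 4 h lay below every control. Group means were 1.63% ± 0.156 (SD, n = 3) in controls, 1.44% ± 0.0312 in Dps at 4 h, 2.30% ± 0.302 in MnDps at 4 h, 2.20% ± 0.0139 in Dps at 24 h and 2.11% ± 0.152 (n = 2) in MnDps at 24 h. In bulk kidney, fewer cells of a type and less RNA per cell cannot be told apart. As a check on short mRNAs, the level of each tested gene relative to its mean over all libraries was ranked against transcript length. Spearman's rho over 14754 genes was 0.14 to 0.45 in controls, 0.42 to 0.45 in Dps at 4 h, -0.50 to -0.26 in MnDps at 4 h, -0.36 to -0.21 in Dps at 24 h and -0.12 to -0.02 in MnDps at 24 h. Short genes as a whole were thus relatively high in the libraries in which the members were high, and the genes of one library share its RNA and depth.

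**Figure D2:**
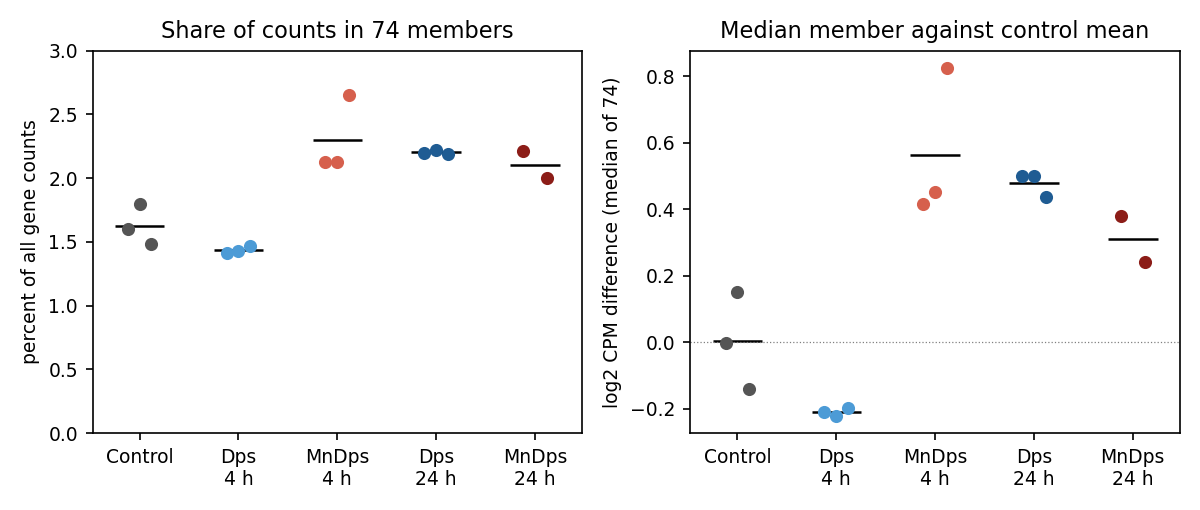
Left, the percent of all gene counts in the 74 members; right, the median over members of the log2 CPM difference from the control mean. Each point is 1 library and each line a group mean; Dps at 4 h lies below the controls and the other treated groups above them, with replicate 3 of MnDps at 4 h highest (2.65% and 0.83).

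Members were therefore read against 2 backgrounds. The first is all 14854 tested genes; the second is the 3726 other tested genes whose transcripts lie within the central 90% of member lengths, 389 to 1715 bases, called short genes here. The median member transcript has 772.5 bases and the median tested gene 2619. Fold changes come from edgeR with library scaling by the trimmed mean of M-values (TMM). Calls were made where the quasi-likelihood test of edgeR gave a Benjamini-Hochberg adjusted p under 0.05 over all tested genes. A further fit removed, in each library, the trend of gene levels on transcript length and GC content, and is called the length-corrected fit. It also removed the mean deviation of a library's genes from their means over all libraries, and so shifted the scale. A further scaling took the TMM factors from the short genes alone, which sets their change near 0. All comparisons with control use the same 3 control libraries, and MnDps against Dps at 4 h shares its Dps libraries with Dps at 24 h against 4 h.

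The ribosomal protein mRNAs stood higher after MnDps than after Dps at 4 h. Of 74 members 73 were higher in MnDps and none was lower, with Rps27 not called (0.46 ± 0.34, adjusted p = 0.31). Over all tested genes 20.8% were called higher and 20.7% lower. The libraries of the 2 groups did not overlap for 73 members, all higher in MnDps, as for 26.5% of all tested genes and 56.5% of other genes of like length in that direction. The median member was higher by 0.78 on the log2 scale, against 0.37 for short genes and -0.01 for all tested genes. Other genes in the bins of 629 and 924 bases had medians of 0.57 and 0.45. Among the 629 short genes that were also as abundant as the members (at or above the 5th percentile of member levels) the median was 0.42, and 471 were called higher. The largest rises were those of Rplp2 (1.11 ± 0.13, adjusted p = 7.1e-05), Rps21 (1.09 ± 0.12, adjusted p = 7.1e-05) and Rpl36a (1.03 ± 0.14, adjusted p = 9.1e-05), and the smallest called was Rpl15 (0.31 ± 0.07). In the length-corrected fit 65 of the 74 were higher and none lower, with a median of 0.37 and 0.05 for short genes, where 14.6% of all genes were called higher. Without replicate 3 of MnDps at 4 h, 72 were higher and the median was 0.62. Under scaling on short genes 67 were higher and none lower, with a median of 0.39, while of all tested genes 645 rose and 7719 fell.

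In MnDps at 4 h against control 70 members were higher and none was lower, where 22.9% of all tested genes were higher and 22.7% lower. The 4 members not called were Rpl30, Rpl34, Rpl7a and Rps27. The median member log2 fold change was 0.56, against 0.28 for short genes and 0.40 and 0.33 in the bins of 629 and 924 bases. Rps20 (0.96 ± 0.12, adjusted p = 1.6e-05), Rps21 (0.95 ± 0.12, adjusted p = 1.7e-05) and Rpl38 (0.88 ± 0.10, adjusted p = 7.0e-06) rose most, by 1.95, 1.94 and 1.85 times. The length-corrected fit left 33 members higher and 3 lower, Rpl7a and Rpl15 among them, with a median of 0.16 against -0.06 for short genes; in that fit 16.4% of all genes were higher and 22.1% lower. Without replicate 3 of MnDps at 4 h, 66 members were higher and the median was 0.42. Scaled on short genes, 48 were higher and none lower, and 1275 of all tested genes were higher and 6625 lower.

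Dps at 4 h against control showed no rise of any member. Only Rps26, a small-subunit protein near the mRNA exit (-0.45 ± 0.13, adjusted p = 0.024), and Rpl7a, of the large subunit (-0.27 ± 0.07, adjusted p = 0.02), fell, where 8.33% of all tested genes were higher and 6.27% lower. At an unadjusted p under 0.05 there were 30 members (40.5%), where 29.7% of all tested genes and 34.1% of short genes were. The median member stood at -0.21, against -0.12 for short genes and -0.17 for the abundant short genes. In the bins of 629 and 924 bases the medians of other genes were -0.18 and -0.15. For 45 of 74 members (60.8%) there was no overlap between libraries, each of them lower in Dps. Of all tested genes 18.7%, and of short genes 28.9%, lay lower without overlap. Both calls rested on single libraries: without replicate 2 of the controls or any 1 of the Dps libraries, 0 were called, and without replicate 3 of the controls 5. The length-corrected fit called 41 lower and none higher, with a median of -0.22 against -0.13 for short genes, where 17.3% of all genes were called lower. It also shifted the general level here. The medians of other genes in bins by length ran from -0.18 to 0.073 under TMM and from -0.17 to -0.014 in that fit. Spearman's rho of change on length went from 0.20 to 0.11, so the trend was only partly removed. With a term for the libraries above 30000000 counts 0 were called, and on short-gene scaling 1 was lower, with 1450 of all tested genes higher and 386 lower.

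At 24 h the ribosomal protein mRNAs stood higher after Dps than in controls, relative to the other RNAs of the library. Of 74 members 66 were higher and none lower, where 9.64% of all tested genes were higher and 10.4% lower. The member median was 0.48, against 0.22 for short genes and 0.35 and 0.27 in the bins of 629 and 924 bases. Rpl36 (0.76 ± 0.15, adjusted p = 0.006), Rps19 (0.75 ± 0.11, adjusted p = 0.0013) and Rpl38 (0.74 ± 0.10, adjusted p = 0.001) rose most. The 8 not called were Rpl15, Rpl17, Rpl30, Rpl34, Rpl4, Rpl7a, Rps26 and Rps27, with values from 0.08 (Rps27) to 0.75 (Rpl30). The length-corrected fit called 27 higher and none lower, median 0.19 against -0.01 for short genes, where 3.78% of all genes were called higher. Without replicate 3 of the controls 35 were called, and without replicate 2 of Dps at 24 h 40. With short genes as the scale, 43 were higher and none lower, and of all tested genes 421 were higher and 4647 lower.

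MnDps at 24 h against control, with 2 treated libraries, called 21 members higher and none lower, where 4.93% of all tested genes were higher and 8.39% lower. The median was 0.32, against 0.15 for short genes and 0.19 and 0.19 in the bins of 629 and 924 bases. Rps21 (0.55 ± 0.13, adjusted p = 0.014), Rpl13a (0.52 ± 0.13, adjusted p = 0.019) and Rplp2 (0.49 ± 0.14, adjusted p = 0.034) were the largest called rises. This count rested on single libraries: it was 0 without replicate 3 of the controls or without replicate 1 of MnDps at 24 h, 2 without replicate 1 of the controls, 3 without replicate 2 of MnDps at 24 h and 38 without replicate 2 of the controls. The length-corrected fit called 2 higher, Rps20 and Rps21, and 1 lower, Rpl10a, with a median of 0.11 against -0.04 for short genes, where 1.95% of all genes were called higher. The corrected value of Rps20 depends on its long annotated length (3706 bases). Scaling on short genes left 7 higher and none lower, with 311 of all tested genes higher and 2078 lower.

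At 24 h no member passed the test between the 2 materials. None of 74 was called in MnDps against Dps at that time by edgeR's quasi-likelihood test, where 0.148% of all tested genes were higher and 0.666% lower. DESeq2 called 1 lower, where it called 2.69% of all genes lower, and 20 (27%) had an unadjusted p under 0.05, where 16.3% of all tested genes did. The median was -0.14, against -0.08 for short genes and -0.13 and -0.087 in the bins of 629 and 924 bases. The libraries of the groups did not overlap for 50 members (67.6%), each lower in MnDps. Of all tested genes 19.5%, and of short genes 27.9%, lay lower without overlap. The length-corrected fit called none, with a median of -0.07, where 1.02% of all genes were called lower. Fitted without the other groups, 11 members (14.9%) were lower, where 3.46% of the genes tested in that fit were. With short genes as the scale none was called, and of all tested genes 4 were higher and 6 lower.

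Between 4 h and 24 h the members rose after Dps. For Dps at 24 h against 4 h, 73 of 74 were higher and none lower, with Rps27 not called, where 22% of all tested genes were higher and 22.6% lower. The median was 0.70, against 0.32 for short genes and 0.50 and 0.41 in the bins of 629 and 924 bases. Rpl36 (0.94 ± 0.15, adjusted p = 0.00027), Rpl37a (0.90 ± 0.12, adjusted p = 5.1e-05) and Rps21 (0.87 ± 0.12, adjusted p = 4.3e-05) rose most, and Rpl15 least among those called (0.30 ± 0.07). The length-corrected fit called 70 higher and none lower, median 0.40 against 0.11 for short genes, where 24% of all genes were called higher. Scaled on short genes, 68 were higher and none lower, with 1068 of all tested genes higher and 7108 lower.

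After MnDps the members tended the other way with time. For MnDps at 24 h against 4 h, 15 were lower and none higher, where 10.1% of all tested genes were higher and 11.7% lower. The member median was -0.26, against -0.15 for short genes and -0.21 and -0.16 in the bins of 629 and 924 bases. Rpl34 (-0.74 ± 0.23, adjusted p = 0.03), Rps20 (-0.49 ± 0.13, adjusted p = 0.015) and Rps15a (-0.48 ± 0.11, adjusted p = 0.0058) fell most. The count was 0 without replicate 2 of MnDps at 24 h, 8 without replicate 1 of that group, 6 without replicate 3 of MnDps at 4 h and 28 without replicate 1 of MnDps at 4 h. The length-corrected fit called 2 lower, Rpl22 and Rps15a, and 1 higher, with a median of -0.05, where 11.2% of all genes were called lower. Rpl22 and Rps15a have long annotated transcripts for the group (2048 and 5130 bases), on which their corrected values depend. Short-gene scaling left 5 lower and none higher, with 2296 of all tested genes higher and 863 lower.

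The interaction of protein and time, the log2 change from 4 h to 24 h after MnDps less that after Dps, was negative in 72 of 74 members and positive in none, where 13.7% of all tested genes were positive and 15.7% negative. Rpl30 (-0.86 ± 0.41) and Rps27 (-0.59 ± 0.53) were not called. The median was -0.96, against -0.44 for short genes and -0.53 for the abundant short genes. Other genes in the bins of 629 and 924 bases had medians of -0.69 and -0.53. Rpl34 (-1.38 ± 0.30, adjusted p = 0.0034), Rpl36 (-1.33 ± 0.23, adjusted p = 0.0011) and Rpl38 (-1.30 ± 0.15, adjusted p = 0.00029) had the most negative values. In the length-corrected fit 60 were negative and none positive, with a median of -0.45 against -0.07 for short genes, where 11.3% of all genes were called negative. Without replicate 3 of MnDps at 4 h, 72 were called and the median was -0.80. Scaled on short genes, 61 were negative and none positive, with 6223 of all tested genes positive and 486 negative.

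**Figure D3:**
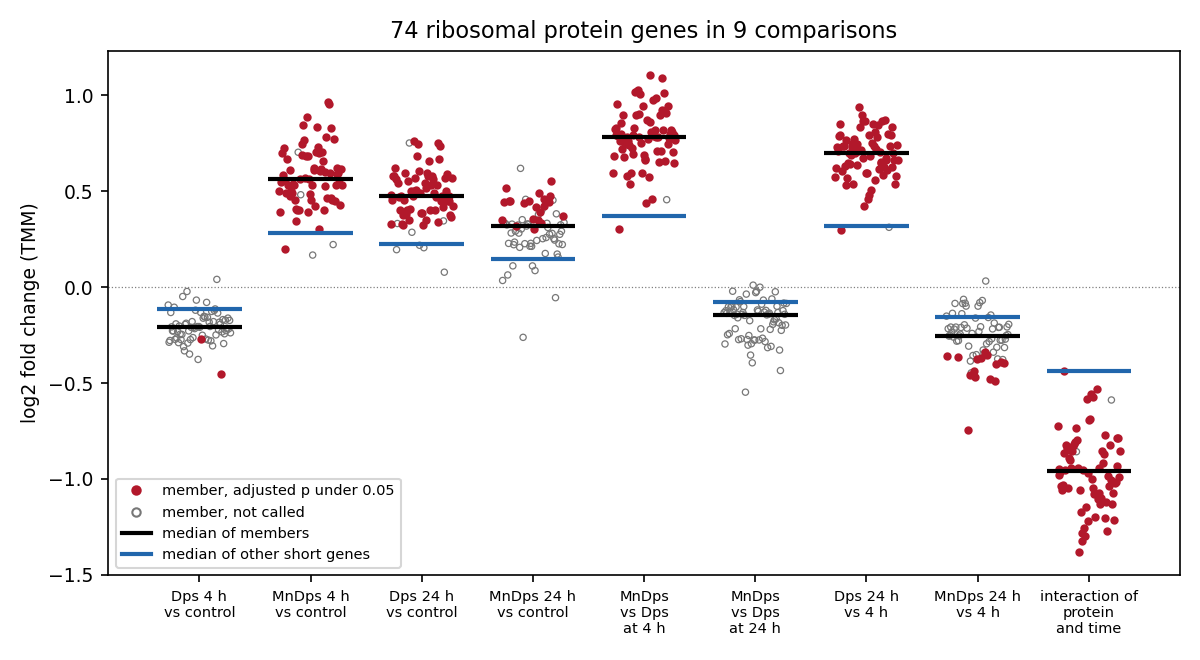
Log2 fold change (TMM scaling) of each of the 74 members in the 9 comparisons; filled points have an adjusted p under 0.05, black lines are member medians and blue lines the medians of 3726 other short genes. The member median lies further from 0 than that of the short genes in each comparison (0.78 against 0.37 in MnDps against Dps at 4 h). The distance is smaller from other genes nearer the members in length, with medians of 0.57 and 0.45 there in the bins of 629 and 924 bases.

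The plot of change against transcript length sets the members beside genes of like size. Over all 14754 tested genes with a known length, the log2 fold change fell with length in MnDps against Dps at 4 h (Spearman's rho -0.63) and in Dps at 24 h against 4 h (-0.46). Within the 74 members the values were -0.33 and -0.49, as a description over genes that share libraries. The large and the small subunit had nearly the same median change, 0.77 and 0.79 in MnDps against Dps at 4 h and 0.71 and 0.67 in Dps at 24 h against 4 h. The 28 members that host genes of small nucleolar RNAs, guides of ribosomal RNA modification, had medians of 0.76 and 0.68, and the other 46 had 0.80 and 0.71. Members with at least 50% of their windows in another gene (38) had medians of 0.76 and 0.68, and those below (36) had 0.80 and 0.71. For Rps15a and Rps20 the annotated lengths, 5130 and 3706 bases, are medians that include long transcripts, and their length-corrected values (1.18 and 1.27 in MnDps against Dps at 4 h, beside 0.78 and 0.92 under TMM) depend on these lengths.

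**Figure D4:**
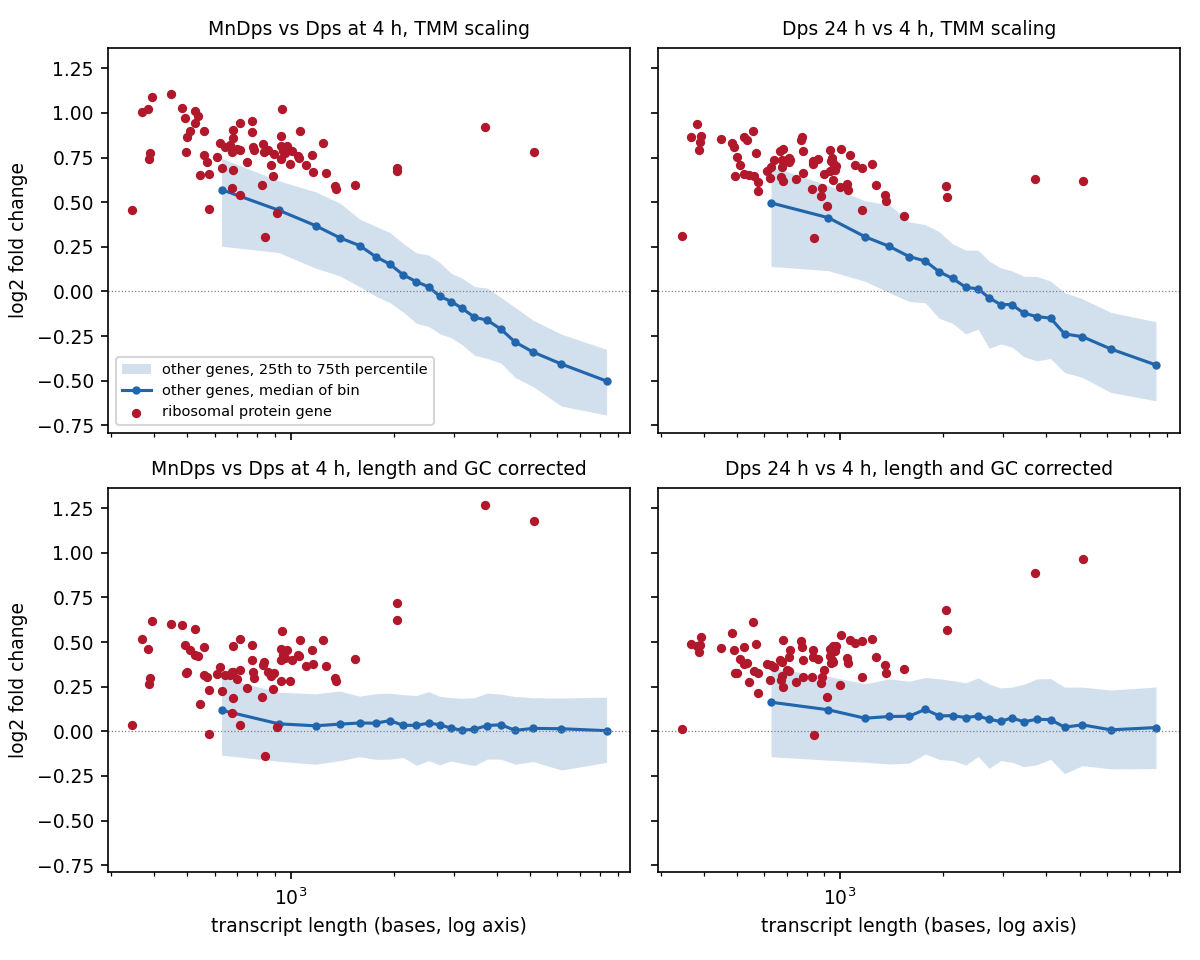
Log2 fold change against transcript length (log axis) for MnDps against Dps at 4 h (left) and Dps at 24 h against 4 h (right), under TMM scaling (top) and after length and GC correction (bottom). Red points are the 74 members; the blue line and band are the median and the 25th to 75th percentile of the other tested genes in 20 bins of equal gene number. The members' medians are 0.78 and 0.70 at the top and 0.37 and 0.40 at the bottom.

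The stalk proteins Rplp0, Rplp1 and Rplp2 form the arm of the large subunit that recruits elongation factors. Rplp0 (chr5:115559467-115563727 on the GENCODE annotation of mm10) is its base and had 541, 684 and 569 CPM in the controls, 549, 536 and 529 CPM in Dps at 4 h, 766, 758 and 879 CPM in MnDps at 4 h, 739.7, 793 and 756 CPM in Dps at 24 h and 774 and 751 CPM in MnDps at 24 h. Rplp1 had 337, 413 and 303 CPM in the controls, 313, 296 and 336 CPM in Dps at 4 h, 502, 546 and 671 CPM in MnDps at 4 h, 516, 557 and 518 CPM in Dps at 24 h and 479.8 and 433 CPM in MnDps at 24 h. Rplp2 (chr7:141447370-141451585) had 163, 188 and 134 CPM in the controls, 129.6, 133 and 139.6 CPM in Dps at 4 h, 247, 266 and 355 CPM in MnDps at 4 h, 248, 239.7 and 238 CPM in Dps at 24 h and 245 and 209.7 CPM in MnDps at 24 h. In all 3 the libraries of MnDps at 4 h and of Dps at 24 h lay above every control library, and those of Dps at 4 h overlapped the controls. In MnDps against Dps at 4 h the log2 fold changes were 0.57 ± 0.09 for Rplp0, 0.86 ± 0.11 for Rplp1 and 1.11 ± 0.13 for Rplp2, and each was called. The difference between the 3 genes was not tested. In the length-corrected fit they were 0.28, 0.33 and 0.60, all called. At 24 h MnDps differed from Dps by -0.00 ± 0.10, -0.22 ± 0.13 and -0.09 ± 0.14, none called, and the sign for Rplp0 and Rplp2 changed under other settings.

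Rpl5 and Rpl11 travel with 5S ribosomal RNA as one particle. Rpl5 (chr5:107900502-107909005) had 263, 254 and 238 CPM in the controls, 228, 211 and 216 CPM in Dps at 4 h, 321, 307 and 429 CPM in MnDps at 4 h, 330.2, 329 and 328 CPM in Dps at 24 h and 289 and 254 CPM in MnDps at 24 h. Rpl11 (chr4:136028265-136053428) had 225, 240.3 and 188 CPM in the controls, 179.7, 171 and 188 CPM in Dps at 4 h, 278, 282 and 394 CPM in MnDps at 4 h, 307, 306 and 281 CPM in Dps at 24 h and 288 and 259.7 CPM in MnDps at 24 h. For Rpl5 the 3 Dps libraries at 4 h lay below every control; for Rpl11 the highest of them was level with the lowest control. Both rose in MnDps at 4 h against control, Rpl5 by 0.48 ± 0.10 and Rpl11 by 0.55 ± 0.12, and in Dps at 24 h, by 0.39 ± 0.10 and 0.45 ± 0.12. They parted after correction for length: in MnDps at 4 h Rpl5 kept 0.46 and its call, while Rpl11 had 0.10 and lost it. The annotated transcript of Rpl5 is long for the group (2045 bases). In MnDps at 24 h against control neither was called (0.11 ± 0.11 and 0.33 ± 0.13).

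Rps6 is the ribosomal substrate of the S6 kinases, which act below mTORC1. It had 137, 153 and 126 CPM in the controls, 126, 119 and 126 CPM in Dps at 4 h, 191, 183 and 233 CPM in MnDps at 4 h, 176, 181 and 182 CPM in Dps at 24 h and 185 and 154 CPM in MnDps at 24 h. Its libraries fell into the same order as the stalk's, with MnDps at 4 h and Dps at 24 h above the controls. The log2 fold change was 0.71 ± 0.10 in MnDps against Dps at 4 h and 0.54 ± 0.10 in Dps at 24 h against 4 h, both called. Rps27a is made as a fusion with ubiquitin, which is cut off to enter the ubiquitin pool. It had 217, 236 and 188 CPM in the controls, 190.3, 197 and 183 CPM in Dps at 4 h, 325, 323 and 447 CPM in MnDps at 4 h, 327, 324 and 298 CPM in Dps at 24 h and 300.5 and 256 CPM in MnDps at 24 h. The rise in MnDps at 4 h against control was 0.77 ± 0.12 and stayed called after length correction (0.38).

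Rps19 is the small-subunit protein most often mutated in Diamond-Blackfan anaemia. It had 158, 214 and 164 CPM in the controls, 164, 166 and 166 CPM in Dps at 4 h, 282, 288 and 352 CPM in MnDps at 4 h, 309, 311 and 284 CPM in Dps at 24 h and 253 and 233 CPM in MnDps at 24 h. The 3 Dps libraries at 4 h were nearly equal, and those of MnDps at 4 h and of both 24 h groups all exceeded every control. Its change was 0.78 ± 0.11 in MnDps at 4 h and 0.75 ± 0.11 in Dps at 24 h against control. At 24 h it was -0.31 ± 0.12 in MnDps against Dps, not called. In Dps at 4 h against control it was -0.11 ± 0.11, not called, and turned to 0.02 without replicate 2 of the controls. Rps20 and Rps21 are also of the small subunit. Rps20 had 171, 193 and 149.8 CPM in the controls, 169.9, 182 and 176 CPM in Dps at 4 h, 293, 298 and 411 CPM in MnDps at 4 h, 267, 285 and 263 CPM in Dps at 24 h and 252 and 223 CPM in MnDps at 24 h, and Dps at 4 h was the one treated group within the control range. Rps21 ranged from 97.5 to 130.4 CPM in controls and from 201 to 263 CPM in MnDps at 4 h.

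Rpl38 is a small protein of the large subunit whose loss alters the axial skeleton of mice. It had 90.7, 88.9 and 74.6 CPM in the controls, 77.4, 75.7 and 80.6 CPM in Dps at 4 h, 141, 146 and 181 CPM in MnDps at 4 h, 147, 143 and 135 CPM in Dps at 24 h and 124 and 107 CPM in MnDps at 24 h. Every library of the other 3 treated groups lay above the controls and above Dps at 4 h. MnDps at 4 h reached 2.01 times the level of Dps at 4 h (adjusted p = 7.1e-05), and the length-corrected log2 value was 0.52, called. With time Rpl38 rose after Dps (0.86 ± 0.10) and fell after MnDps (-0.44 ± 0.11). Rpl36 followed it, with 83.7 to 129 CPM in controls, 88.0 to 99.8 in Dps at 4 h, 162 to 238 in MnDps at 4 h, 165 to 193 in Dps at 24 h and 145 and 145 in MnDps at 24 h.

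Other members of the large subunit moved by different amounts. Rpl13a, which can leave the ribosome in interferon-treated myeloid cells and repress inflammatory mRNAs, had 362, 446 and 337 CPM in the controls, 326, 325 and 327 CPM in Dps at 4 h, 552, 572 and 771 CPM in MnDps at 4 h, 599, 605 and 557 CPM in Dps at 24 h and 581 and 512 CPM in MnDps at 24 h. It rose in all 3 groups above control, by 0.73 ± 0.12 in MnDps at 4 h, 0.62 ± 0.12 in Dps at 24 h and 0.52 ± 0.13 in MnDps at 24 h, the last without a call after length correction (0.24). Rpl3, which lies close to the site of peptide bond formation, changed by 0.40 ± 0.10, 0.35 ± 0.10 and 0.21 ± 0.11, the last not called. Rpl22, which has a paralog of related function in Rpl22l1, changed by 0.47 ± 0.09, 0.33 ± 0.09 and 0.11 ± 0.10, again with no call in the last. Under scaling on short genes the last value of Rpl22 was -0.04, and that of Rpl5 was -0.04 as well.

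Rpl7a and Rpl15, of the large subunit, changed least among the abundant members in MnDps against Dps at 4 h; Rpl15 was chosen after its values were seen. Rpl7a had 408, 468 and 419 CPM in the controls, 364, 346 and 363 CPM in Dps at 4 h, 471, 459 and 525 CPM in MnDps at 4 h, 492, 511 and 491 CPM in Dps at 24 h and 468 and 449 CPM in MnDps at 24 h. Rpl15 had 139.5, 149 and 131 CPM in the controls, 130.1, 126 and 134 CPM in Dps at 4 h, 156, 156 and 169.9 CPM in MnDps at 4 h, 161, 157 and 161 CPM in Dps at 24 h and 150.1 and 142 CPM in MnDps at 24 h. Both lay in a narrow band, with the Dps libraries at 4 h at its lower end. In MnDps against Dps at 4 h they rose by 0.44 ± 0.07 and 0.31 ± 0.07. After length correction these values were 0.03 and -0.14, neither called, and against control both were called lower in MnDps at 4 h (-0.25 and -0.25). Rps26, with 118, 151 and 114 CPM in the controls, 94.0, 89.5 and 96.6 CPM in Dps at 4 h, 149.9, 157 and 218 CPM in MnDps at 4 h, 161, 167 and 158 CPM in Dps at 24 h and 156 and 146 CPM in MnDps at 24 h, fell in Dps at 4 h and was higher in MnDps at 4 h against control by 0.45 ± 0.12. The 3 low members gave imprecise values: Rpl34 had 2.09, 1.95 and 1.88 CPM in controls and 2.39, 2.95 and 2.89 in MnDps at 4 h, and Rps27 had 0.427 to 0.965 CPM over all libraries.

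**Figure D5:**
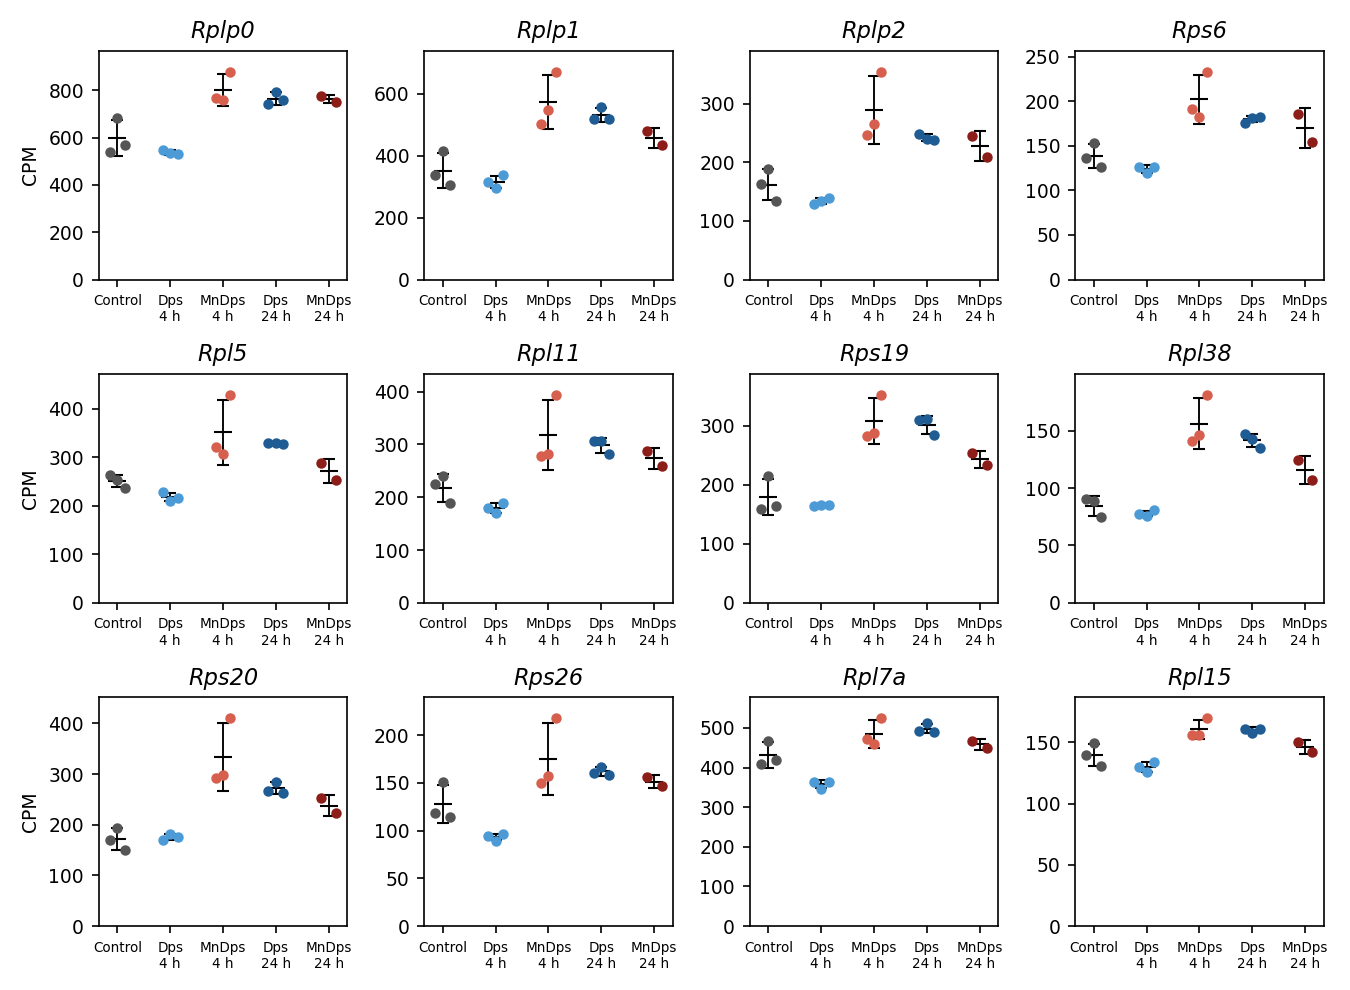
Level (CPM of the TMM-scaled library) of 12 members by group, 1 point per library, with the mean and SD (n = 3, MnDps at 24 h n = 2). In Rplp1, Rplp2, Rps19 and Rpl38 the libraries of MnDps at 4 h and Dps at 24 h lie above all controls, while Rpl7a and Rpl15 span a narrow range.

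Ribosomal proteins outside the symbol pattern changed with the members. A list of 4 such genes, Rpsa, Fau and Gnb2l1 (Rack1) among them, was higher throughout in MnDps against Dps at 4 h, with a median of 0.72, and in Dps at 24 h against 4 h, with a median of 0.66. Rpsa, the small-subunit protein also known as laminin receptor, rose by 0.87 ± 0.11 and 0.74 ± 0.11, and kept both calls after length correction (0.69 and 0.66). Rps3a1, a small-subunit protein whose symbol carries a further number after its letter, had 297 ± 14.2 CPM in controls, 260.0 ± 5.56 in Dps at 4 h, 441 ± 68.7 in MnDps at 4 h, 407 ± 7.07 in Dps at 24 h and 343 ± 39.6 in MnDps at 24 h. Of 10 paralogs of ribosomal proteins, 9 were in the table and 6 were tested. All 6 were higher in MnDps against Dps at 4 h and 2 after length correction. Rpl22l1, the paralog of Rpl22, was called lower in MnDps against Dps at 24 h (-0.60 ± 0.12, adjusted p = 0.034), where no member was called, but not after length correction (-0.26).

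The remaining genes of the translation machinery moved less uniformly. A list of 20 other TOP mRNAs encoded elongation and initiation factors and some other proteins. Of these, 14 were higher and 1 lower in MnDps against Dps at 4 h, with a median of 0.42. Among all tested genes 20.8% were higher and 20.7% lower there. After length correction 9 of the list were higher and 1 lower, with a median of 0.21. Under scaling on short genes it was 7 and 7, with a median of 0.03. Eef1d and Eef1b2, subunits of the exchange factor of elongation factor 1, rose by 0.86 ± 0.10 and 0.79 ± 0.09. Of 43 ribosome assembly factors 21 rose and 1 fell in MnDps at 4 h against control, with a median of 0.26, where 22.9% and 22.7% of all tested genes did, 18 and 0 after length correction, with a median of 0.22, and 4 and 6 under scaling on short genes, with a median of -0.03. Eif6, which keeps the 60S subunit from joining too early, rose by 1.06 ± 0.13, Noc4l by 0.68 ± 0.11 and the polymerase subunit Polr1c by 0.62 ± 0.08. In Dps at 24 h against control 4 assembly factors were higher, a share near the 9.64% of all tested genes, and none after length correction. At 24 h against 4 h after MnDps, 11 assembly factors were lower and 1 higher, where 11.7% and 10.1% of all tested genes were, and 5 and 1 under scaling on short genes. Whether members and assembly factors differed in their changes was not tested.

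Among 19 genes through which mTORC1 controls translation, MnDps at 4 h against control called 2 higher and 8 lower, where 22.9% of all tested genes were higher and 22.7% lower, and 1 and 11 under scaling on short genes. Eif4ebp1, a repressor of cap-dependent translation, rose by 0.93 ± 0.13, and its relative Eif4ebp2 fell by 1.01 on the log2 scale. These are mRNA levels and say nothing of phosphorylation. Over all tested genes with a known length, change fell with transcript length in MnDps at 4 h against control (Spearman's rho -0.45). Other genes in the bin of 4116 bases had a median of -0.18. After length correction Eif4ebp1 was 0.82, Eif4ebp2 -0.997 and Larp4, also of this list, -0.30 beside -0.64 under TMM, all called. The number of the list called in that fit is not given here. Whether the listed genes fell more than others of their length was not tested. Of 13 genes of ribosome stress and rescue, 2 were higher in Dps at 4 h against control, where 8.33% of all tested genes were, Cdkn1a, a p53 target and brake on the cell cycle (0.87 ± 0.19), and Eif2ak2, the interferon-induced kinase PKR (2.72 ± 0.11). In MnDps at 4 h, against the same controls, the values of Cdkn1a and Eif2ak2 were 1.35 ± 0.20 and 2.45 ± 0.11, both called. Any link of these genes to the members was not tested. Both fell from 4 h to 24 h after Dps, Cdkn1a by 0.90 and Eif2ak2 by 2.97 on the log2 scale.

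Other families of short, abundant mRNAs moved in the same direction. In MnDps against Dps at 4 h, 74 of 77 mitochondrial ribosomal protein genes were higher (median 0.55), as were 34 of 35 tested complex I genes (0.68) and 32 of 37 tested proteasome genes (0.52), where 20.8% of all tested genes were. Under scaling on short genes 32, 26 and 10 were higher and 2, 1 and 5 lower. After length correction 46, 25 and 27 were called, with medians of 0.30, 0.22 and 0.27, beside 65 of 74 and 0.37 for the cytosolic ribosomal proteins. In MnDps at 4 h against control, the corrected medians were 0.07, 0.03 and 0.13 beside 0.16, and in Dps at 24 h against control 0.05, 0.08 and 0.10 beside 0.19. Whether the members differ from these families was not tested.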

How the data were processed

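RNA-seq of kidney messenger RNA (stranded kit, paired-end, per the labels' protocols) was analysed in 14 libraries, numbered within groups in accession order. The authors deposited raw counts per gene. Reads were aligned to mm10 with STAR and counted with featureCounts, per the submitters' processing notes; no source used here gives their versions or the strand and multi-mapping settings. Of 24421 genes, 14854 passed the count filter (filterByExpr) and entered 1 fit of 5 group means in edgeR 4.0.16 (R 4.3.3, limma 3.58.1), with TMM scaling, the robust quasi-likelihood test (9 residual degrees of freedom, biological coefficient of variation 10.7%) and Benjamini-Hochberg adjustment within each of 9 comparisons at 0.05. Values after ± in fold changes are standard errors of log2 fold changes; those of CPM are SDs.

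Transcript length is the median over a gene's protein-coding GENCODE M21 (GRCm38) basic transcripts, known for 99.3% of tested genes. The length-corrected fit used per-library spline trends (5 degrees of freedom each) on length and GC content, fitted on genes that are no members and removed with their intercepts. Alternatives were median-of-ratios scaling, TMM without the members or over genes of like length, no count filter, DESeq2 1.42.0, a term for libraries above 30000000 counts, only the groups compared, and leaving out each library. Promoters came from RefSeq on GRCm38.p6. The script was tested on simulated data.

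The members and lists were chosen with earlier results of these data known. Named in every comparison were 12 members; added were the 3 largest called rises and falls, the 3 highest and lowest levels per length, genes at the edge of the count rule, members called against the majority, and up to 3 called genes per list. Some items are not reported here.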

Additional observations from a re-analysis of the deposited data

Results flagged for a closer look

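The change from 4 h to 24 h differed between MnDps and Dps by edgeR's quasi-likelihood test of the interaction in 72 of 74 members, each with a negative value on the log2 scale (MnDps less Dps). Among members named above, it was -0.57 for Rplp0, -1.08 for Rplp1, -1.20 for Rplp2, -0.79 for Rps6, -0.97 for Rpl5, -0.95 for Rpl11, -1.06 for Rpl13a, -1.13 for Rps27a, -0.89 for Rpl22, -1.20 for Rps19, -1.30 for Rpl38, -0.73 for Rpl3, -1.38 for Rpl34 and -1.33 for Rpl36. The 3726 short genes had a median of -0.44, with 1483 of them called negative. Groups of 2 or 3 libraries were too small to test for single outlying libraries.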

How the results depend on the processing

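No paired analysis was possible because the labels carry no replicate numbers. Scaling on short genes was chosen after seeing the data; it moved the median of all tested genes by up to 0.48 (interaction) and by -0.40 in MnDps against Dps at 4 h. In Dps at 4 h against control the number of members lower was 1 under that scaling and 0 with the depth term. It was 4 (5.41%) with DESeq2, where 7.63% of all tested genes were lower. With only the groups compared it was 4 (5.41%), where 4.81% of the genes tested in that fit were. After length correction it was 41, where 17.3% of all genes were called lower. In MnDps at 4 h against control the median was 0.26 on short genes and 0.16 after length correction, with 33 higher and 3 lower in the latter. In Dps at 24 h against control 43 and 27 were higher, with medians of 0.25 and 0.19. In MnDps at 24 h against control 7 were higher on short genes and 2 after length correction, where 1 was lower. Medians were 0.17 on short genes and 0.11 after correction. With DESeq2, the depth term and only the groups compared, 33, 4 and 12 were higher. The shares of all tested genes called higher in these latter fits are not given here, so the counts show only a dependence on the fit. For MnDps against Dps at 4 h medians were 0.39 and 0.37; at 24 h DESeq2 called 1 lower and the groups alone 11. For Dps at 24 h against 4 h medians were 0.65 over the full length range, 0.38 on short genes, 0.40 after length correction and 0.60 with the depth term. For MnDps at 24 h against 4 h 5, 2 and 0 were lower on short genes, after length correction (1 higher) and with only the groups compared. In the last of these fits 6.46% of the genes tested were lower. Interaction medians were -0.49 and -0.45. The median of other genes over the full range of member lengths was 0.05, 0.04, 0.04, 0.04 and -0.04 in MnDps at 4 h and Dps at 24 h against control, MnDps against Dps at 4 h, Dps at 24 h against 4 h and the interaction; over the central 90% it was 0.28, 0.22, 0.37, 0.32 and -0.44. The cause was not tested.

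Leaving out 1 library gave 0 to 5 lower members (medians -0.27 to -0.15) in Dps at 4 h, 66 to 71 higher (0.42 to 0.62) in MnDps at 4 h, 35 to 69 higher (0.41 to 0.53) in Dps at 24 h and 0 to 38 higher (0.23 to 0.38) in MnDps at 24 h against control. It gave 72 to 73 higher (0.62 to 0.85) for MnDps against Dps at 4 h, 0 to 0 lower (-0.23 to -0.095) at 24 h, 71 to 73 higher (0.67 to 0.71) for Dps with time, 0 to 28 lower (-0.34 to -0.12) for MnDps with time and 72 to 72 lower (-1.04 to -0.80) in the interaction. Where 1 library of MnDps at 24 h was left, it was assumed to vary like the other groups.

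Signs turned for values near 0. With 1 library left out, Rps19 in Dps at 4 h ran from -0.20 (control replicate 1) to 0.023 (control replicate 2). On short genes Rpl5 and Rpl22 in MnDps at 24 h against control were -0.041 and -0.040, and Rplp0 in MnDps at 24 h against 4 h was 0.077 (0.051 after length correction). In MnDps against Dps at 24 h Rplp0 was 0.0008 with median-of-ratios scaling and with DESeq2, 0.011 over the full length range, 0.075 on short genes, 0.0063 after length correction, and from -0.029 without MnDps replicate 1 to 0.026 without Dps replicate 2 (0.020 without MnDps replicate 2). Rplp2 was 0.012 after length correction and ran from -0.21 without MnDps replicate 1 to 0.020 without MnDps replicate 2, where Rps6 was 0.044. Of 124 named values, length correction ended 22 calls and added 6, scaling on short genes ended 18, and TMM without the members changed none. Depth limits Rpl30, Rpl34 and Rps27, and reads shared with other genes limit the 38 members named above.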
